A study of Mus musculus with 12 samples.

Results

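The response to TCDD through the mouse receptor was measured in hepatocytes of wild type C57BL6/J mice. Of the 12 Affymetrix expression arrays of the series, 6 make up this comparison. They are the 3 arrays of wild type cells given 10 nM TCDD and the 3 arrays of wild type cells given DMSO, the vehicle, chosen by their labels alone. All cells were primary hepatocytes from liver, grown for 48 h in Hepatozyme-SFM with 2.5% dimethyl sulfoxide and 10 nM dexamethasone and then treated for 6 h, so that both groups carried dexamethasone and dimethyl sulfoxide throughout. The design text gives 1 array per mouse, so each array stands for its own animal, and it states no age. The other 6 arrays held hepatocytes of B6.Cg-Ahrtm3.1Bra mice with Alb-cre and Ttr-AHR transgenes (labelled Human AHR), under the same vehicle and TCDD treatments. In those mice a hepatocyte-directed Cre acts on the mouse Ahr gene and the Ttr promoter drives the human receptor. They entered the estimate of the spread and served as a second set of arrays for the genes described here.

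TCDD is a chlorinated dioxin and a persistent, high-affinity ligand of the aryl hydrocarbon receptor (AHR). The unliganded receptor is held in the cytoplasm by HSP90 and co-chaperones. With ligand it enters the nucleus, pairs with ARNT and binds DNA elements around the core GCGTG, and in liver it is best known for inducing the Cyp1 cytochromes and other enzymes of foreign compound metabolism. The receptor also induces its own brakes, among them the repressor Ahrr and the ADP-ribosyltransferase Tiparp.

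Signals are the deposited intensities with every array rescaled to a trimmed mean of 150. This step bears on the comparison, because the wild type TCDD arrays had been deposited at a trimmed mean of 500 and the other 9 arrays at 150. The treatment and the deposited scaling therefore coincide in wild type cells. Array medians of the 12 arrays lay between 16.5 and 23.5. In wild type cells they were 18.1, 18.1 and 19.0 under vehicle and 20.28, 21.54 and 21.87 under TCDD. After rescaling, the median of every wild type TCDD array thus still lay above that of every wild type vehicle array. The ratio of 3′ to 5′ signal of Gapdh lay between 0.798 and 0.839 in the 6 wild type arrays. Arrays give no counts, and their number limits the precision. The cells matched their label. All 9 measured hepatocyte markers reached a mean signal of 50, with a summed signal of 59880 to 64880 under vehicle and 62350 to 74800 under TCDD. Of the markers of other liver cells, 1 of 9 for Kupffer cells and macrophages, 0 of 8 for stellate cells and fibroblasts, 0 of 6 for endothelium, 3 of 4 for cholangiocytes and 0 of 4 for lymphocytes reached that signal. In such bulk RNA, fewer cells of a type and less RNA per cell cannot be told apart. The replicate 2 arrays of both wild type groups showed high Xist, at 3085 and 2952, and almost no signal of the Y-linked Eif2s3y, at 4.7 and 0.42. The other 4 wild type arrays showed the reverse, so each group held 1 array of the female pattern and 2 of the male pattern.

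Across the 18193 genes, the test called few genes. Tiparp, the ADP-ribosyltransferase that dampens receptor activity, was the only gene called higher (limma, Benjamini-Hochberg adjusted p = 0.0193), and none was called lower. This is 0.0055% of genes called higher and 0% called lower. With 3 arrays a group, a gene without a call may still have changed. At an unadjusted p under 0.05, 545 genes (3%) were higher and 216 (1.19%) were lower. Both directions together made a smaller share than the 5% expected at this limit with no effect. The same arrays compared with SAM over 20 relabellings, at a false discovery rate of 5%, gave 0 genes.

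A broader view counts the genes whose 3 TCDD arrays all lay above, or all below, the 3 vehicle arrays. There were 1123 genes above (6.17%) and 511 below (2.81%). This split moved with the scaling, to 796 and 711 after quantile normalization and to 646 and 1002 when arrays were shifted to the same median. Much of it came from dim genes. Among the 9450 genes with a mean signal under 50 over the 6 arrays, 855 lay above (9.05%) and 280 below (2.96%). Among the 8743 genes at or above 50, 268 lay above (3.07%) and 231 below (2.64%). Of the 20 ways to split 6 arrays into 3 and 3, 1 puts the TCDD arrays highest and 1 puts them lowest. With no effect, 5% of genes would thus be expected on each side. Only the upward shares of all genes (6.17%) and of dim genes (9.05%) were larger. A lack of overlap therefore does not by itself mark a gene as responding.

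For these 8743 genes the median log2 change was -0.01, and from percentile 5 to percentile 95 they spanned -0.38 to 0.35. A fold of 2 was passed by 11 genes upward and by 10 downward, of which 5 and 2 had groups that did not overlap. The 5 were Cyp1a1, Tac1, Tiparp, G6pc and Rab30, and the 2 were Ankrd1 and Gm7969. The plot of change against signal shows these genes outside a narrow band.

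**Figure D1:**
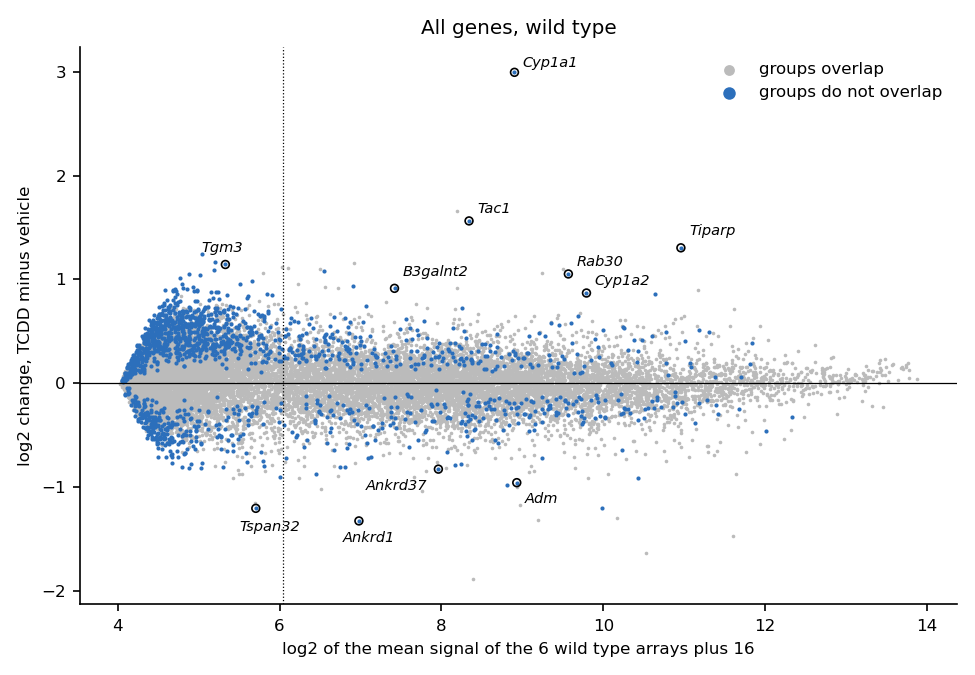
Log2 change with TCDD (vertical axis) against log2 of the mean signal of the 6 wild type arrays plus 16 (horizontal axis), 1 point per gene. Blue points are genes whose TCDD and vehicle arrays do not overlap, circles mark named genes, and the dotted line is a signal of 50. Tiparp at 1.30 and Cyp1a1 at 3.00 stand above the band of genes, and the non-overlapping genes are densest at low signal on the upper side.

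The replicates were not equally alike. Across genes, vehicle arrays correlated with each other at 0.979 to 0.985 and TCDD arrays at 0.958 to 0.976. The median SD of log2 signal among genes of at least 50 was 0.195 under vehicle and 0.263 under TCDD, and 67.2% of genes varied more under TCDD. TCDD replicate 3 stood apart most often. It held the highest or the lowest signal of the 6 arrays in 60.8% of these genes, against 18% to 36.4% for the other arrays. Values without this array are given below for the results it moved most.

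**Figure D2:**
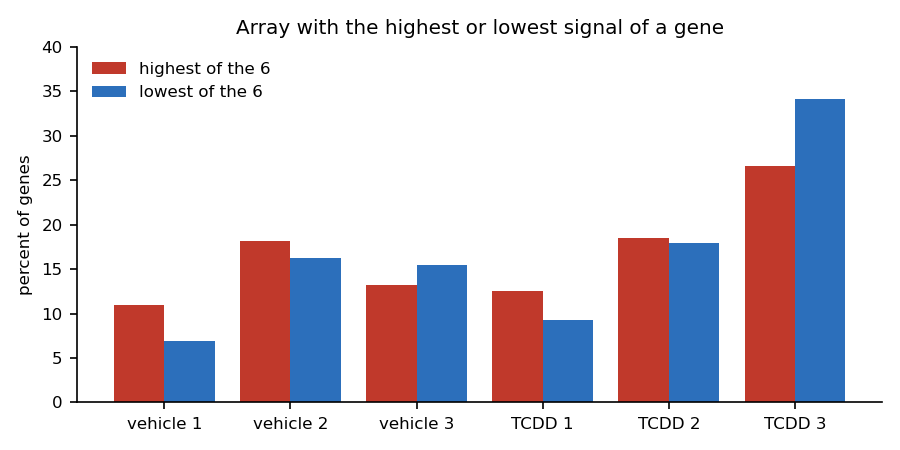
Percent of the 8743 genes with a mean signal of at least 50 for which each wild type array held the highest (red) or the lowest (blue) of the 6 signals. TCDD replicate 3 held the highest in 26.6% and the lowest in 34.2% of genes, above every other array on both counts.

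The classical target genes come first. The AHR gene battery, a list of the best known target genes of the receptor, had 8 measured members, and all 8 had a positive log2 change, from 0.13 to 3.00 with a median of 0.55. The median of all genes was 0.03. Of the 8, 1 passed the test and 3 lay wholly above vehicle (Tiparp, Cyp1a1 and Cyp1a2), where 6.17% of all genes did. The battery's median change from the vehicle mean was 0.45, 0.94 and 0.27 in TCDD replicates 1, 2 and 3. Replicate 2 was the highest of the 3. Without it the battery's median was 0.33, and without replicate 3 it was 0.68.

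Promoters of 3 genes that lay above vehicle are shown because the receptor acts through DNA elements near its target genes. Each is the stretch of 250 bases upstream of the RefSeq start site, 5′ to 3′ on the gene's strand, in build GRCm38.p6, with matches to GCGTG on either strand (CACGC on the other) in capitals. Cyp1a1 is at chr9:57697363-57697612 on the plus strand, Tiparp at chr3:65528197-65528446 on the plus strand and Pmm1, a phosphomannomutase described further on, at chr15:81960931-81961180 on the minus strand.
Cyp1a1: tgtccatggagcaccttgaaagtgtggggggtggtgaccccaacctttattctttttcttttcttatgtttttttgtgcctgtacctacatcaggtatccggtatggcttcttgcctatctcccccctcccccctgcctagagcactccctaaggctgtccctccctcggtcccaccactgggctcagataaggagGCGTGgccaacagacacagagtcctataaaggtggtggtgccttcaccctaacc
Tiparp: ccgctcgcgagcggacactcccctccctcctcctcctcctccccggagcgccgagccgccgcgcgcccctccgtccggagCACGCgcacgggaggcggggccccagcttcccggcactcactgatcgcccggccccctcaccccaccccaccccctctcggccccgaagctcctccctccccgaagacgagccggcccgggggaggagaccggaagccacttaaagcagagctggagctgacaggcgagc
Pmm1: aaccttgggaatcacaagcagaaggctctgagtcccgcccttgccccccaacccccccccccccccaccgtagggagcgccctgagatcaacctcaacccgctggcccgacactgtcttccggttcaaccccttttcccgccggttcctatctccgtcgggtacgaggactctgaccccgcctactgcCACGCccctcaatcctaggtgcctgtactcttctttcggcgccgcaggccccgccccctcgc
Each window held 1 match, which began 54 bases upstream of the start in Cyp1a1, 170 in Tiparp and 62 in Pmm1. The motif is common, present in 28.2% of all 32851 windows of the table and in 52.7% of the 7210 measured genes with a signal of at least 50 and a window. Of the 10 largest increases, 7 had a window and 4 of them a match. Of the 10 largest decreases, also 7 had a window and 4 a match. The AHR gene battery as a whole likewise had 7 genes with a window and 4 with a match (57.1%). Among the further TCDD-responsive genes, 10 of 16 with a window had a match (62.5%). Genes with a signal of at least 50 that lay wholly above vehicle held it in 58.1% of 217 windows, and those wholly below in 53% of 185.

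Tiparp read 1402, 911 and 1098 in vehicle replicates 1, 2 and 3, and 2575, 3324 and 2534 in the TCDD replicates. Every TCDD array stood well clear of every vehicle array, and the lowest TCDD signal was 1.81 times the highest vehicle signal. The means were 1137 ± 248 and 2811 ± 444.5 (SD, n = 3), a log2 change of 1.30 (standard error 0.15, limma adjusted p = 0.0193). All 3 of its probe sets were higher, with changes of 1.30, 1.44 and 1.36 and no overlap in any of them. The size of the change held when single wild type arrays were left out (1.16 to 1.46), but the call did not. The adjusted p was 0.0973 without vehicle replicate 2, 0.198 without vehicle replicate 3, 0.0906 without TCDD replicate 1, 0.0732 without TCDD replicate 2, 0.0575 to 0.0635 without any 1 of the human AHR arrays, and 0.986 in a fit of the 6 wild type arrays alone.

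Cyp1a1, the cytochrome P450 that serves as the standard marker of receptor activation, read 25.3, 24 and 18.5 under vehicle. Under TCDD it read 125, 2518 and 64.9. All 3 TCDD arrays lay above vehicle, but replicate 2 was far above the other two. The log2 change of 3.00 (standard error 0.87) had a 95% confidence interval of 1.11 to 4.88 and did not pass over all genes (limma adjusted p = 0.966). It was 1.47 without TCDD replicate 2 and 3.96 without TCDD replicate 3. In the 4 arrays of the male pattern it was 1.5.

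Cyp1a2, the related cytochrome that is already expressed in untreated liver, read 734, 429 and 611 under vehicle and 753, 898 and 1799 under TCDD. The groups did not overlap, by a narrow margin between vehicle replicate 1 and TCDD replicate 1. Here replicate 3 was the highest TCDD array, while it was the lowest for Cyp1a1. The log2 change was 0.87 (standard error 0.27, limma adjusted p = 0.966), and 0.50 without TCDD replicate 3.

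The remaining battery members moved less or were dim. Cyp1b1, the third Cyp1 cytochrome, read 3.3, 6.6 and 1.0 under vehicle and 20.7, 23.3 and 4.11 under TCDD. Its signals are near the floor of the arrays, and TCDD replicate 3 lay among the vehicle arrays. Nqo1, a quinone reductase shared with the NRF2 pathway, read 87.3, 74.5 and 68.9 under vehicle and 117, 154 and 66 under TCDD. Nfe2l2, which encodes NRF2 itself, read 1727, 2216 and 2145, and then 2484, 4106 and 2079. In both genes TCDD replicate 2 was the highest of the 6 arrays and TCDD replicate 3 the lowest of the 3 TCDD arrays, and their log2 changes were 0.41 and 0.45 (limma adjusted p = 0.966 for each). Ahrr, the repressor of the receptor, and Aldh3a1, an aldehyde dehydrogenase, stayed under a signal of 13 in all 6 arrays, with changes of 0.13 and 0.16.

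**Figure D3:**
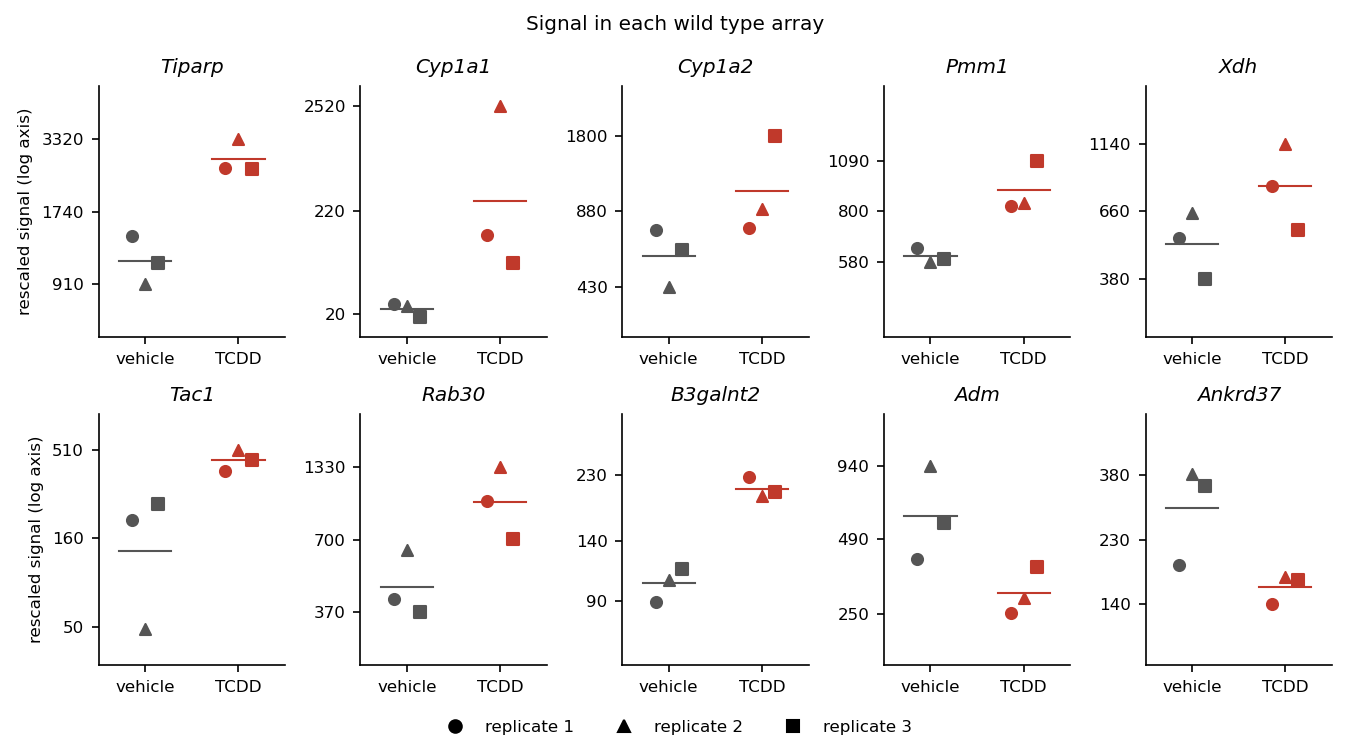
Rescaled signal (log axis, a scale for each gene) of 10 genes in the 3 vehicle (grey) and 3 TCDD (red) wild type arrays. Marker shape gives the replicate and lines are means on the log scale. Tiparp and B3galnt2 form tight groups, while Cyp1a1 spreads from 64.9 to 2518 under TCDD.

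The receptor and its partners showed small differences from vehicle. Of the 11 measured genes of the complex, 4 were higher and 7 lower, with changes between -0.23 and 0.16 and a median of -0.04. None passed the test and none had groups that did not overlap. Ahr read 261, 617 and 245 under vehicle and 243, 442 and 223 under TCDD, where the replicate 2 array was the highest of each group. Its change was -0.23 (standard error 0.31, limma adjusted p = 0.966). Arnt, the partner, changed by -0.06, and Hsp90aa1, the chaperone, by 0.13.

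Further genes known to respond to TCDD in liver had mostly positive changes, the largest in Xdh (0.65), Cyp2s1 (0.65), Gadd45b (0.60) and Pmm1 (0.59). Of the 19 measured genes of this list, 15 were higher and 4 lower, with a median of 0.36. None passed the test, 3 lay wholly above vehicle (Pmm1, Notch1 and Ugdh) and 0 wholly below, where 6.17% and 2.81% of all genes did. The median was 0.13 without TCDD replicate 3. The same list had a median of 0.09 with TCDD in human AHR cells.

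Pmm1 read 635, 581 and 593 under vehicle and 826, 839 and 1093 under TCDD. The vehicle arrays were close together and all TCDD arrays lay above them. The log2 change was 0.59 (standard error 0.17, limma adjusted p = 0.966), and its second probe set, at 0.49, did not overlap either. Xdh, the xanthine dehydrogenase of purine breakdown, read 531, 649 and 379 under vehicle and 813, 1143 and 567 under TCDD. Only TCDD replicate 3 lay within the vehicle range, and the change was 0.65 (standard error 0.23). Notch1, a cell surface receptor, changed by 0.46, and Ugdh, which makes the sugar donor for glucuronidation, by 0.39.

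Antioxidant genes under NRF2 overlapped in function with the battery. Of 13 measured, 10 were higher, with a median of 0.25, and 1 lay wholly above vehicle, a share near the 6.17% of all genes. That gene was Gclc, a subunit of the enzyme that limits glutathione synthesis, which read 2369, 2257 and 1672 under vehicle and 2805, 2923 and 3056 under TCDD (log2 0.49, standard error 0.18, limma adjusted p = 0.966). Its partner subunit Gclm changed by 0.58 and Txnrd1, a thioredoxin reductase, by 0.55, and both overlapped. Without TCDD replicate 3 these changes were 0.38 and 0.37, and the median of the list was 0.12. It was 0.13 without vehicle replicate 3.

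Among genes outside the classical lists, Tac1, Rab30 and B3galnt2 stood out. Tac1 encodes the precursor of the neuropeptide substance P. It read 203, 49.0 and 252 under vehicle and 388, 510 and 449 under TCDD. The TCDD arrays were alike, and the spread came from vehicle replicate 2, which was far below the other vehicle arrays. The log2 change was 1.56 (standard error 0.50, limma adjusted p = 0.966), and 0.84 in the 4 arrays of the male pattern. A second, dim Tac1 probe set changed by 0.32 and overlapped.

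The promoter of Tac1, shown because of its 3 matches, is at chr6:7554811-7555060 on the plus strand in GRCm38.p6, 5′ to 3′ with GCGTG and its reverse complement in capitals.
Tac1: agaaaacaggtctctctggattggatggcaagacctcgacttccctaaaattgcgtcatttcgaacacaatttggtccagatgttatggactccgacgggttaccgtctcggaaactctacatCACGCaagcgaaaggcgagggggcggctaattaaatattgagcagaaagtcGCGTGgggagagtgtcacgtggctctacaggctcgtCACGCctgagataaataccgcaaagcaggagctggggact
The matches began 127, 76 and 40 bases upstream of the start. A match is a description of the letters and was not tested as a binding site.

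Rab30, a small GTPase of the Golgi, read 414, 642 and 372 under vehicle and 990, 1334 and 707 under TCDD. TCDD replicate 3 cleared the highest vehicle array, replicate 2, by a factor of 1.10. The log2 change was 1.05 (standard error 0.23, limma adjusted p = 0.966). B3galnt2, a glycosyltransferase of the endoplasmic reticulum that modifies dystroglycan, read 89.5, 105 and 114 under vehicle and 226, 196 and 202 under TCDD. Both groups were tight, and the change of 0.91 (standard error 0.15) had the second smallest p of all genes, with limma adjusted p = 0.373. Of its other probe sets, the next brightest changed by 0.69 without overlap, while 2 dim ones changed by 0.43 and -0.34.

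Ndrg1, a stress-responsive gene, read 1234, 1106 and 952 under vehicle and 1763, 1583 and 2867 under TCDD. All TCDD arrays lay above vehicle and replicate 3 was the highest. The change was 0.86 (standard error 0.26, limma adjusted p = 0.966), or 0.61 without replicate 3. All 5 of its probe sets lay wholly above vehicle, with changes of 0.86 to 0.90. The other large increases without overlap were G6pc (1.08), the glucose-6-phosphatase of gluconeogenesis, Jade3 (0.94), a partner of histone acetyltransferases, and Klk1 (0.75), a kallikrein protease. The 3 other Klk1 probe sets were dim and overlapped, at -0.02 to 0.37. For G6pc the vehicle arrays read 72.7, 62.1 and 12.2, so the low vehicle replicate 3 carried much of the change, which was 0.56 at its lowest when single arrays were left out.

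Among genes of at least 50 without overlap, the 10 largest decreases included 2 kinds. In the first, TCDD replicate 3 was far below every other array. Ankrd1, an ankyrin repeat gene regulated by YAP, read 125, 138 and 202 under vehicle and 99.8, 88.2 and 8.91 under TCDD. Its change of -1.33 became -0.61 without that array. Gm7969 went from -1.20 to -0.43, Phldb2, a gene of cell attachment to matrix, from -0.98 to -0.45, and Frmd4b, a scaffold gene, from -0.92 to -0.41.

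In the second kind the TCDD arrays were alike. Adm, which encodes the vasodilator peptide adrenomedullin, read 407, 941 and 566 under vehicle and 252, 287 and 380 under TCDD. The TCDD arrays lay below all vehicle arrays, the closest pair being vehicle replicate 1 and TCDD replicate 3. The log2 change was -0.96 (standard error 0.26, limma adjusted p = 0.966), and its second probe set changed by -0.83 with overlap. Ankrd37, an ankyrin repeat gene known as a target of HIF1, read 190, 383 and 350 under vehicle and 139, 172 and 168 under TCDD. The 3 TCDD arrays were close together and the vehicle replicate 1 array was the nearest to them. The change was -0.83 (standard error 0.21, limma adjusted p = 0.966). The other members of the 10 were Zap70 (-0.87), a T cell kinase, Ankrd23 (-0.81), Plekha2 (-0.81) and Cd24a (-0.79), a surface glycoprotein, each with limma adjusted p = 0.966. The other probe sets of Zap70 changed by 0.14 and 0.13 with overlap, while all 3 of Cd24a lay wholly below vehicle.

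Adm and Ankrd37 are targets of HIF1, the hypoxia factor that shares ARNT as a partner with the AHR, and their promoters are shown for comparison with those above, in the same build and direction. Adm is at chr7:110627407-110627656 on the plus strand and Ankrd37 at chr8:45999851-46000100 on the minus strand, with matches to GCGTG on either strand in capitals.
Adm: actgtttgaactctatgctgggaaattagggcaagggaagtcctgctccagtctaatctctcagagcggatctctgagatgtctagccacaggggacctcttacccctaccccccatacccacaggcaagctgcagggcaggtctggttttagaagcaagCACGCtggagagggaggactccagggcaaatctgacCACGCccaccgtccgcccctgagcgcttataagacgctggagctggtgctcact
Ankrd37: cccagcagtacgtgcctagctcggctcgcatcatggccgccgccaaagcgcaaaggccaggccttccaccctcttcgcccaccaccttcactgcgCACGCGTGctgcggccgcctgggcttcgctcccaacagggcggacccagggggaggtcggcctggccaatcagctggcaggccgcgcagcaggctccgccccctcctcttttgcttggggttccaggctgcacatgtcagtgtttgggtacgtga
Each held 2 matches. Those of Adm began 90 and 54 bases upstream, and those of Ankrd37 overlapped each other and began 155 and 152 bases upstream. The wider list of HIF1 targets did not move together. Of 19 measured, 10 were higher and 9 lower, with a median of 0.02. Those without overlap were Ndrg1 on the upper side, near the 6.17% of all genes, and Adm and Ankrd37 on the lower, where 2.81% of all genes lay. Vegfa, the vascular growth factor, changed by -0.40 (standard error 0.21) and overlapped, and Bhlhe40, a repressor of the clock that also responds to hypoxia, changed by -0.38 without overlap (limma adjusted p = 0.966 for both).

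The human AHR arrays share no array with the wild type comparison, so they show how the same genes behaved in other mice. Of the 10 largest wild type increases, 8 were also higher there, 5 of them without overlap, and of the 10 largest decreases, 9 were also lower, 2 of them without overlap. Among all genes with a signal of at least 50, 46.7% were higher and 53.3% lower in human AHR cells, and 2.97% and 2.99% lay wholly above or below. By direction alone, the larger sets lay near this background. Of the 268 genes wholly above vehicle in wild type cells, 133 (49.6%) were higher in human AHR cells, and of the 231 wholly below, 128 (55.4%) were lower. By groups without overlap, 18 of the 268 (6.72%) lay wholly above vehicle in human AHR cells too, against 2.97% of all these genes. Of the 231, 8 (3.46%) lay wholly below, near the 2.99% of all. In the opposite direction, 10 of the 268 (3.73%) lay wholly below vehicle in human AHR cells, and 5 of the 231 (2.16%) wholly above.

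The limma test called 4 genes in human AHR cells (0.022%), which were Tiparp, B3galnt2, Cyp1a1 and Rab30, each also wholly above vehicle in wild type cells. Of the genes with a signal of at least 50, these 18 and 8 make 26 that lay wholly on the same side in both genotypes. Cyp1a1, Tac1, Tiparp, Rab30 and B3galnt2 had the largest increases of the 18. They were followed by Cpm, a carboxypeptidase of the cell surface (0.60 in wild type and 0.51 in human AHR cells), Fbp1, the fructose bisphosphatase of gluconeogenesis (0.54 and 0.32), and Edc3, an mRNA decapping factor (0.52 and 0.55). Among the 8 below were Adm (-0.96 and -0.71), Ankrd37 (-0.83 and -0.35), Bag2, a co-chaperone of HSP70 (-0.54 and -0.58), Bhlhe40 (-0.38 and -0.31) and Ticam1, an adaptor of Toll-like receptors (-0.26 and -0.45). Cpm, Fbp1, Edc3, Bag2 and Ticam1 were named for this pattern after their values were seen.

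**Figure D4:**
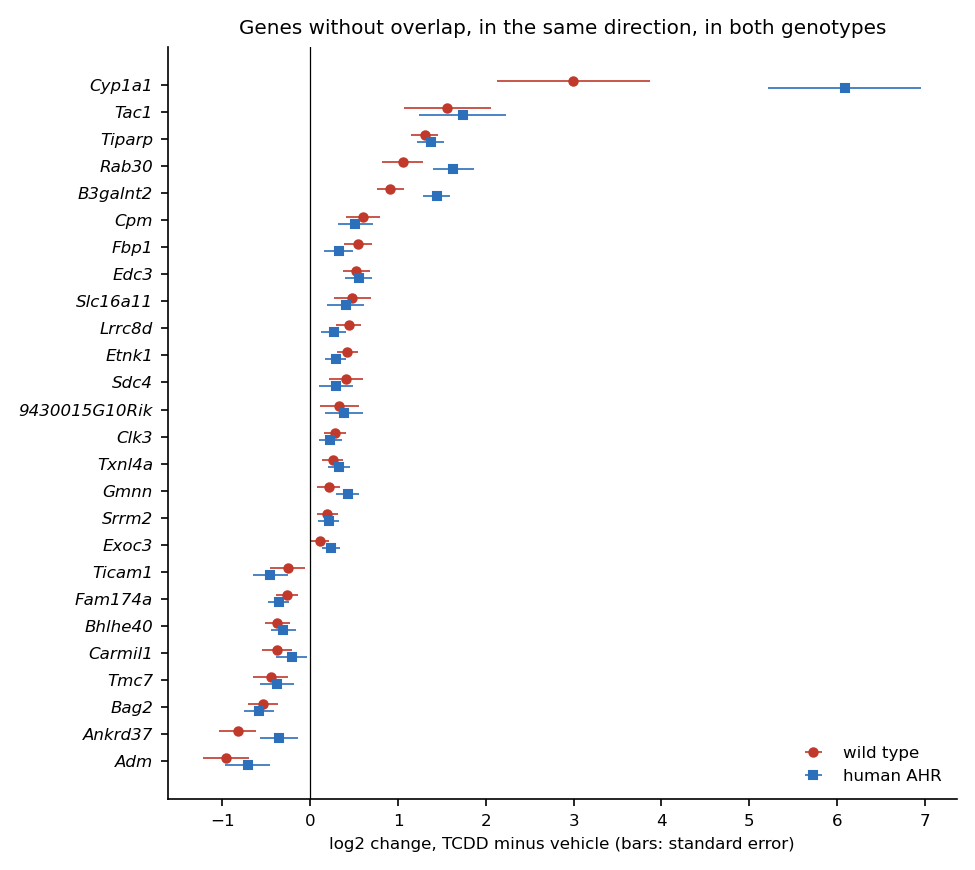
Log2 change with TCDD in wild type (red circles) and human AHR (blue squares) cells for the 26 genes with a signal of at least 50 whose groups did not overlap, in the same direction, in both. Bars are standard errors of the limma fit. Cyp1a1 changed by 3.00 and 6.09, and for every other gene the 2 values lay within 1 of each other.

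No gene passed the test of the difference between the 2 genotypes' responses (limma, 0 of 18193, or 0%), and 573 genes (3.15%) had an unadjusted p under 0.05. Cyp1a1 differed most among the genes above, by 3.09 more in human AHR cells (95% confidence interval 0.43 to 5.75, adjusted p = 0.999). For Tiparp the difference was 0.07, with an interval of -0.40 to 0.54. B3galnt2 differed by 0.53 (0.06 to 0.99) and Rab30 by 0.58 (-0.14 to 1.29), again with adjusted p = 0.999. Jade3 and Klk1 went the other way, by -1.25 (-2.14 to -0.36) and -0.67 (-1.31 to -0.02). Without wild type TCDD replicate 2, the difference for Cyp1a1 was the only one called.

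Rgs2, a regulator of G protein signalling, and Zfp36l1, an RNA-binding protein, were followed because of their values in human AHR cells, where neither passed the limma test. In wild type cells Rgs2 read 227, 1035 and 284 under vehicle and 79.2, 250 and 44.4 under TCDD, with overlap only between vehicle replicate 1 and TCDD replicate 2. Its changes were -1.88 in wild type and -1.70 in human AHR cells (limma adjusted p = 0.966 and 1). The wild type value of Rgs2 was the lowest log2 change of all genes. Of its other probe sets, 1 changed by -1.85 without overlap and 1 by -1.68 with overlap. The dimmest changed by -0.05, also with overlap. Zfp36l1 changed by 0.34 in wild type cells and by 1.35 in human AHR cells, and its wild type value was -0.08 without TCDD replicate 2.

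Pathway lists outside the AHR set had 0 members that passed the test, and the medians given below changed in size when single arrays were left out. Of 26 measured genes of the unfolded protein response, the programme that handles misfolded proteins, 25 were higher, with a median of 0.25. None had groups that did not overlap. The median stood at 0.19, -0.16 and 0.69 in TCDD replicates 1, 2 and 3, and was 0.01 without replicate 3 and 0.45 without replicate 2. Atf4, a factor of this response, read 3674, 2445 and 2971 under vehicle and 3622, 2730 and 6644 under TCDD, so that only the third TCDD array exceeded the vehicle range.

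Heat shock genes had the same shape. Of 13 measured, 11 were higher, with a median of 0.22, which was 0.72 in TCDD replicate 3, -0.21 in replicate 2, and 0.03 without replicate 3, 0.34 without replicate 2 and 0.11 without vehicle replicate 2. Hspa1a, an inducible HSP70, read 473, 213 and 356 under vehicle and 671, 245 and 2283 under TCDD.

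Interferon-stimulated genes and genes of lipid metabolism lay on the lower side. Of 22 measured interferon-stimulated genes, 20 were lower, with a median of -0.29 and 1 (Xaf1) wholly below vehicle, where 2.81% of all genes were. The list stood at -0.14, 0.19 and -0.89 in the 3 TCDD replicates and at -0.01 without replicate 3, -0.51 without replicate 2 and -0.19 without vehicle replicate 2. In human AHR cells, 18 of the 22 were lower with TCDD, with a median of -0.22 beside -0.01 for all genes. The 18 were not all among the 20, since Rsad2 changed by 0.15 in wild type and by -0.20 in human AHR cells. Of 20 measured genes of cholesterol synthesis, 18 were lower, with a median of -0.26 and values of -0.38, 0.08 and -0.60 by replicate. Leaving out 1 array gave medians of -0.13 without vehicle replicate 2, -0.16 without TCDD replicate 3, -0.41 without vehicle replicate 1 and -0.46 without TCDD replicate 2. Msmo1, a sterol oxidase, was the 1 gene of that list wholly below vehicle (-0.46, limma adjusted p = 0.966). Fatty acid oxidation genes had 14 of 20 lower, with a median of -0.18, which was -0.07 without TCDD replicate 3, -0.11 without vehicle replicate 2 and -0.30 without TCDD replicate 2.

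In all of these lists TCDD replicate 2, the array of the female pattern, stood opposite to replicate 3 or near 0. A list of genes that differ between male and female liver stood at 0.68, -0.78 and 0.67 in TCDD replicates 1, 2 and 3. In vehicle replicates 1, 2 and 3 it stood at 0.42, -0.49 and 0.07. A fit without both wild type replicate 2 arrays was added after seeing the data. It gave medians of 0.40 for the unfolded protein response and 0.25 for heat shock genes. For interferon-stimulated, cholesterol synthesis and fatty acid oxidation genes it gave -0.43, -0.38 and -0.23. The part of sex, or of any other trait of single arrays, in these list values was not tested. The plot of list medians shows the AHR battery with all 3 TCDD arrays to the right of the vehicle arrays. It shows most other lists with TCDD arrays on both sides. The order seen in the battery was not unique to it. The further TCDD-responsive genes stood at 0.27, 0.29 and 0.48 under TCDD and at 0.06, 0.01 and -0.09 under vehicle. The median of all genes had the same order by small margins, at 0.021, 0.032 and 0.023 against 0.0004, -0.014 and -0.0015.

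**Figure D5:**
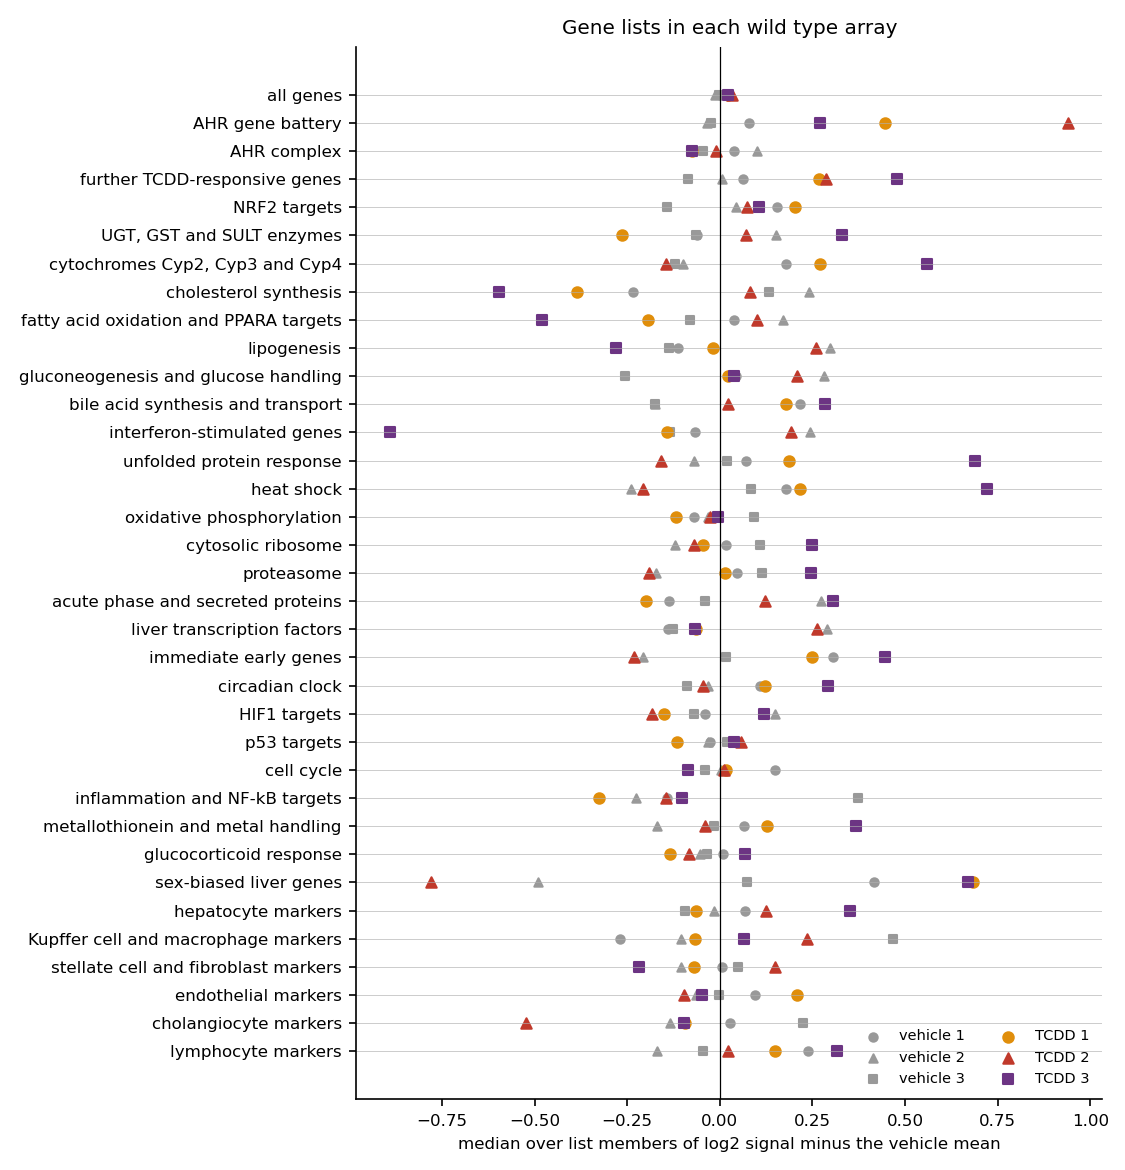
Median over the members of each list of log2 signal minus the vehicle mean, for each vehicle (grey) and TCDD (coloured) wild type array. For the AHR gene battery the TCDD arrays sit at 0.45, 0.94 and 0.27, and for the unfolded protein response at 0.19, -0.16 and 0.69.

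Finally, 7 of the 10 genes with the smallest p were dim. Slfn1, a Schlafen gene, read 0.8, 0.7 and 0.3 under vehicle and 15.7, 10.3 and 19.7 under TCDD, and Retn, which encodes resistin, read 4.8, 2.4 and 1.6, and then 18.7, 18 and 25.7. Tspan32, a tetraspanin, went the other way, from 48.1, 80.5 and 43.5 to 14.2, 15.0 and 16.1. Their probe sets did not move alike, since a second probe set changed by 0.07 for Slfn1 and by -0.04 for Tspan32, both with overlap. In human AHR cells Slfn1 changed by -0.20, Retn by 0.05 and Tspan32 by -0.18, each with overlap. The wild type and human AHR comparisons differ in receptor, in mice and in the deposited scaling of the TCDD arrays, which cannot be told apart here. The limma adjusted p in wild type cells was 0.69 for Slfn1, 0.755 for Retn and 0.966 for Tspan32.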

How the data were processed

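The authors deposited linear intensities of 45101 probe sets per array, which the design text says came from PLIER-MM in Affymetrix Expression Console 1.1, a tool also named per the submitters' processing notes. The round trimmed means of 150 and 500 are what global scaling gives and PLIER does not, so the named method and the values do not match. Every array was rescaled to a mean of 150 after trimming 2% at each end, and log2 was taken of the rescaled intensity plus 16, so that folds of dim genes are understated. After removal of 64 control probe sets, the brightest probe set with 1 symbol stood for each of 18193 genes. limma 3.58.1 under R 4.3.3 was run on 12 arrays with 1 mean for each of the 4 groups (8 residual degrees of freedom, eBayes with an intensity trend), two-sided, with Benjamini-Hochberg adjustment over all genes and a threshold of 0.05. Lists (35, with 500 of 560 entries measured) were described by counts and medians.

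The genes named were those called, the 10 with the smallest p, the 10 largest increases and decreases without overlap at a signal of at least 50, all measured AHR genes and up to 4 per other list. The members and lists were chosen with earlier results of these data known. Promoters came from RefSeq (GRCm38.p6), matched by symbol for 14452 genes. Alternatives covered offset, scaling, filters, fit, probe sets, a replicate term, SAM and leaving out each array. On simulated data the wild type fit recovered 40% of genes planted at a log2 change of 1 and 93% at 2, among 18193. The simulation planted 100 genes at each size together, with independent normal noise and 1 spread per gene for all groups. The real wild type TCDD arrays varied more than the vehicle arrays (median SD 0.263 against 0.195), so these shares need not hold for the data. Figures used matplotlib 3.10.9.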

Additional observations from a re-analysis of the deposited data

How the results depend on the processing

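The wild type comparison called 1 gene, Tiparp, and also 1 with an offset of 1 or 50, after quantile normalization, with arrays shifted to the same median, without the dimmest 40% of genes, with probe sets averaged, and with the sex pattern as a term (added after seeing the data). It called 2 with array weights (Tiparp and B3galnt2) and 2 when every probe set was tested (both of Tiparp). It called 0 without the intensity trend, in the fit of the 6 wild type arrays, with SAM, and without both wild type replicate 2 arrays (added after seeing the data). At an unadjusted p under 0.05 the first of these fits had 607 genes higher and 208 lower, the second 512 and 181, and the last 640 and 433. Leaving out each array in turn gave 0 to 1 calls. The difference between genotypes gave 0 to 1 calls when each array was left out, and 1 (Cyp1a1) without both replicate 2 arrays.

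Same-numbered vehicle and TCDD arrays of wild type cells correlated, in deviations from group means, at 0.25, 0.508 and 0.049. The replicate 2 arrays, both of the female pattern, had the highest value of all. Each correlated negatively with the other arrays of the opposite treatment (-0.46 to -0.097). Vehicle replicate 1 correlated best with TCDD replicate 3 (0.283). These values do not settle whether the numbers mark pairs. The main fit took none because the design text gives 1 array per mouse, and this choice bore on which gene was called. With a replicate block within each genotype, 1 gene was called, Rab30 (adjusted p = 0.0179), and Tiparp was not (0.101).

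Tiparp was the only gene called in the main fit. It kept its sign under every alternative but lost its call in 14 of them, more than those in which it kept it. Over all 4394 values of 184 named genes under alternatives, 2 gained a call. These were B3galnt2 with array weights and Rab30 with the replicate block. A further 215 values without a call moved by more than their standard error. Of 839 list medians, 26 moved by more than the SD over the 3 TCDD arrays. Signal near the floor of the arrays limits Cyp1b1, Ahrr and Aldh3a1.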
